A study of Papio anubis with 12 samples.

Results

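The TIM translocases and the small TIM chaperones of the mitochondrion, together with the insertase OXA1L, were described in the precentral gyrus of baboon neonates. The members were TIMM8A, TIMM8B, TIMM9, TIMM10, TIMM13, TIMM17A, TIMM22, TIMM23, TIMM44 and OXA1L. A probe set, the group of short oligonucleotides that measures a transcript on these arrays, was taken where the platform annotation gives exactly 1 gene symbol and that symbol is a member. This found 20 of the 54675 probe sets, and all 10 genes, of 19775 with such a probe set, had at least 1. TIMM17A had 4, TIMM22 had 3, TIMM8A, TIMM8B, TIMM10, TIMM13 and TIMM44 had 2 each, and TIMM9, TIMM23 and OXA1L had 1 each. Probe sets of a gene are told apart below by the ending of their identifier (_at, _s_at, _x_at) and, where the ending is shared, as the brighter or the dimmer. A further 3 probe sets carry the symbols of both TIMM23 and TIMM23B and were left out by this rule. TIMM8A and OXA1L were selected by the study on these same arrays, so their differences between formulas are given as a description, with no test.

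The animals were neonate baboons (Papio anubis) fed 1 of 3 formulas and examined at 83 to 87 days of age. Formula C held no docosahexaenoic acid (DHA) and no arachidonic acid (ARA), the long chain polyunsaturated fatty acids (LCPUFA) of milk. Formula L held 0.33% DHA with 0.67% ARA, and formula L3 held 1.00% DHA with the same 0.67% ARA. Each group had 4 animals with 1 array each, and C held 2 males, L 1 male and L3 0 males. The precentral gyrus holds the primary motor cortex, and the arrays (Affymetrix HG-U133 Plus 2.0) carry probes designed on human transcripts. How well each human probe matches the baboon transcript is not known from the files.

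Nearly all mitochondrial proteins are made in the cytosol and imported. The small TIM proteins are chaperones of the intermembrane space with a pair of cysteine motifs. TIMM9 with TIMM10 escorts hydrophobic carriers to the TIMM22 complex of the inner membrane, while TIMM8A with TIMM13 escorts a narrower set that includes TIMM23 and the aspartate/glutamate carriers of the brain. TIMM23 and TIMM17A form the channel for proteins with a cleavable presequence, TIMM44 ties the import motor to it, and OXA1L inserts proteins into the inner membrane from the matrix side. TIMM8A is X-linked in humans, and its loss causes Mohr-Tranebjaerg syndrome, a deafness-dystonia disorder.

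The only TIMM8A sequences at hand were those of the TaqMan assay that the study designed on the baboon transcript for its RT-PCR of this gene, a measurement separate from the arrays that was not analysed here. They are shown as the study lists them and were not aligned here to a transcript or to the array probes. They are written 5′ to 3′ in lower case with no part marked.
TIMM8A forward primer: tgcaccagatgactgaactttgtt
TIMM8A reverse primer: agcccgactgtccaactttg
TIMM8A TaqMan probe: tccatgcacttctccc
In the baboon RefSeq annotation each of the 10 symbols was found once. TIMM8A lies between BTK and TAF7L, TIMM8B next to SDHD, a subunit of respiratory complex II, and TIMM44 next to ELAVL1.

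Signals are MAS5 intensities on a linear scale, and every array had a trimmed mean of 250.01 to 250.02. Differences are on the scale of log2(signal + 16) after quantile normalization, with the standard error (SE) of limma, and they understate changes of dim probe sets. The arrays differed in the signal of the bacterial spike-in controls added before hybridization, whose mean log2 levels for C, L and L3 were 12.02 ± 0.67, 11.70 ± 0.99 and 12.73 ± 1.32 (SD, n = 4 each). L replicate 1 (13.04) lay above the rest of its group, and L3 replicate 4 (10.80) lay below the rest of its own. The log2 ratio of the 3′ to the 5′ ACTB control, which is higher in more degraded RNA, ranged from -0.03 to 3.59 in C, from -0.15 to 3.45 in L and from 0.17 to 6.18 in L3. Of 37 listed markers of 8 cell types, 33 had a probe set with 1 symbol. The summed signal of 7 neuronal markers was 58721.4 to 93718.8 over the 12 arrays, with SNAP25 and SYT1, proteins of synaptic vesicle release, the brightest. The means of this sum were 80606.8 for C, 75947.0 for L and 69687.1 for L3, and the ranges of the 3 formulas overlapped. In whole tissue, fewer cells of a type and less RNA per cell cannot be told apart.

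TIMM8A was read by 2 probe sets, and they gave different pictures. The study describes its RT-PCR of TIMM8A as bearing out its own array result, which rested on RMA values, not those used here. In that result TIMM8A was only slightly raised in L and more so in L3, both by less than the differences given below. The probe set the study selected had signals of 78.3, 34.1, 5.1 and 9.1 in C replicates 1 to 4. In L the signals were 199.8, 48.5, 91.4 and 63.2, and in L3 they were 202.4, 297.1, 222.7 and 65.0. In 3 of the 4 L3 arrays the signal was above every C array, and L3 replicate 4 lay below C replicate 1, so the groups overlapped. The means for C, L and L3 were 31.6 ± 33.6, 101 ± 68.4 and 197 ± 96.8 (SD, n = 4 each). On the log2 scale L/C was 1.46, L3/C was 2.17 and L3/L was 0.71 (SE 0.56 each).

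The other TIMM8A probe set had signals of 345.2, 152.1, 356.6 and 202.1 in C. In L they were 67.5, 280.6, 304.1 and 324.5, and in L3 they were 199.6, 446.1, 155.0 and 252.4. All 3 formulas covered much the same range, and their means were 264.0 ± 103, 244 ± 119 and 263 ± 128 (SD, n = 4 each). On the log2 scale L/C was -0.20 and L3/C was -0.12 (SE 0.55 each). L/C was 0.36 without L replicate 1, and L3/C had the opposite sign under 8 of 24 alternatives. Both probe sets carry the symbol TIMM8A alone. Within an array, the log2 signal of the study's probe set minus that of the other averaged -2.76 ± 1.08 for C, -1.10 ± 1.64 for L and -0.47 ± 0.98 for L3 (SD, n = 4 each). The L value rested on L replicate 1, at 1.33 against -2.17 to -1.56 in the rest of L, and without it the mean of L was -1.91. These differences were not tested, and in C replicates 3 and 4 the study's probe set lay at signals of 5.1 and 9.1, below the pseudocount of 16.

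**Figure D1:**
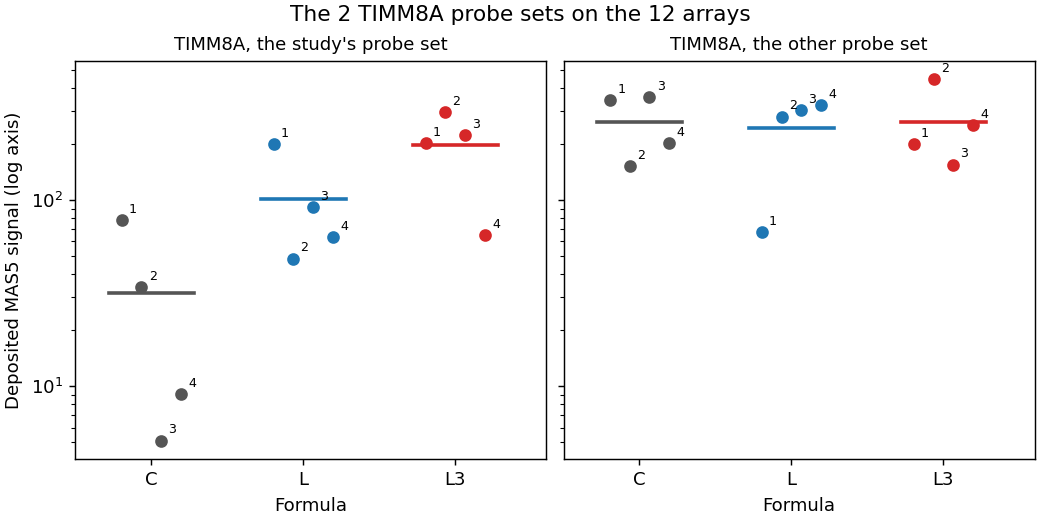
MAS5 signals (log axis) of the 2 TIMM8A probe sets on each of the 12 arrays, grouped by formula, with a bar at the arithmetic mean of the 4 arrays and the replicate number beside each point. For the study's probe set the means of C, L and L3 were 31.6, 101 and 197, while for the other they were 264.0, 244 and 263.

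The study's TIMM8A probe set and the spike-in signal shared their 4 highest arrays, but not their order on the rest. The 4 arrays where this probe set was highest were L3 replicates 1 to 3 and L replicate 1. They were also the 4 with the highest spike-in signal, and for the other TIMM8A probe set 1 of these 4 was among its highest 4. Counted from the highest, C replicate 2 ranked 5 in spike-in signal and 10 in the study's probe set, and L3 replicate 4 ranked 11 and 7. The L3/C difference of the study's probe set was 1.81 (SE 0.52) with the spike-in signal as a covariate. Among the 6 arrays with lower spike-in signal (2 C, 3 L and 1 L3) it was 1.75, a value that rests on L3 replicate 4 alone, and among the 6 with higher signal (2 C, 1 L and 3 L3) it was 1.89. The L/C difference was 1.85 in the former, and 1.57 in the latter, where L replicate 1 alone stands for L. With arms of 1 to 3 arrays these are descriptions of the arrays only. Without L replicate 1 and L3 replicate 4 the L3/C difference was 2.52. With the ACTB ratio as a covariate it was 1.99. Sex was uneven among the formulas, and the L3/C difference was 2.20 with sex as a covariate and 2.49 in females only. The summed signal of 4 meningeal markers was 1878.1 to 6352.6 over the C arrays, 2714.0 to 10248.9 over L and 3019.7 to 14649.3 over L3. That of 2 choroid plexus markers was 101.3 to 608.8, 41.3 to 143.8 and 213.0 to 1297.1. The highest array was in L3 for both lists, and also for the astrocyte, endothelium and erythroid lists, while the summed oligodendrocyte markers had a mean of 6283 in L3 and 9007 in C. The part of these markers, of the spike-in signal and of sex in the TIMM8A values was not tested.

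**Figure D2:**
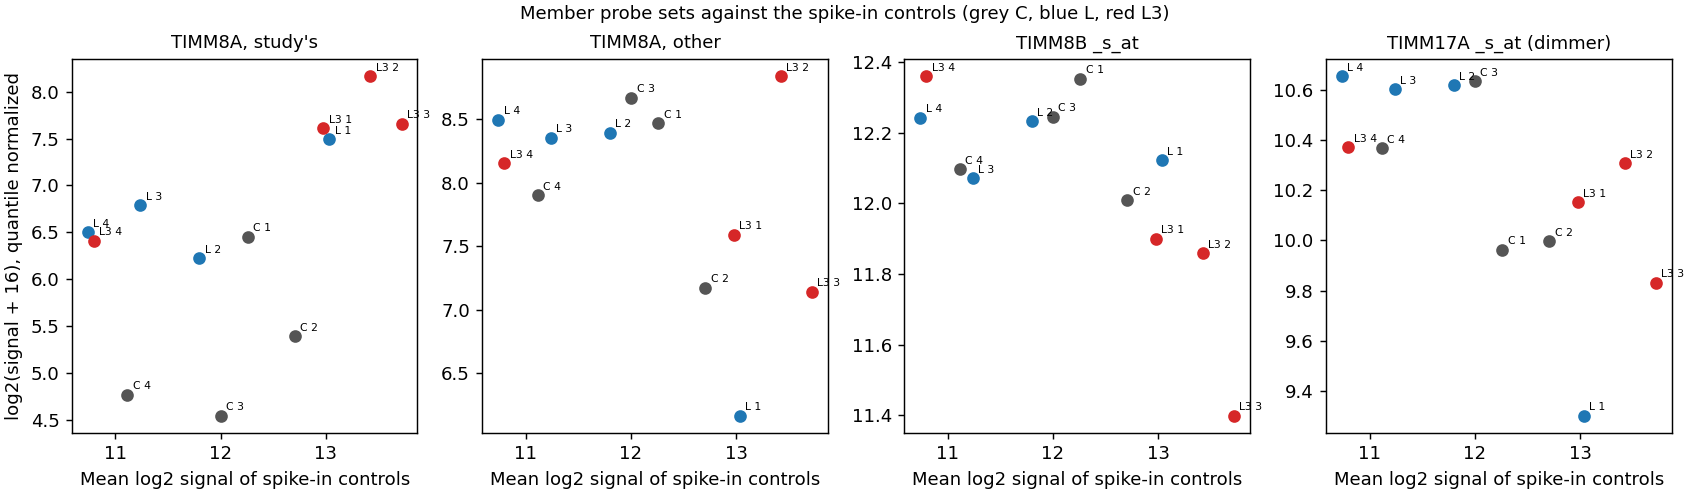
Normalized log2(signal + 16) of both TIMM8A probe sets, TIMM8B _s_at and the dimmer TIMM17A _s_at probe set on the vertical axes against the mean log2 spike-in signal on the horizontal axis, 1 point per array coloured by formula. The latter 2 were chosen after their values were seen. The 4 arrays furthest to the right are L3 replicates 1 to 3 and L replicate 1, and they hold the 4 highest values of the study's TIMM8A probe set.

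Among the other small TIM chaperones no probe set had an adjusted p under 0.05 in any comparison, beside 0% of all probe sets. TIMM8B, the close relative of TIMM8A, had the brightest member probe set, _s_at, with signals of 3027.4 to 7725.9 in C, 2699.8 to 7133.4 in L and 2048.3 to 5807.2 in L3. Its L/C value was -0.01 and its L3/C value -0.30 (log2, SE 0.19). The L3/C value was -0.73 after median centring of the arrays, which put all probe sets at a median of -0.12. Among the 6 arrays with lower spike-in signal, where L3 replicate 4 alone stands for L3, it was 0.19. It was -0.46 among the 6 with higher signal. The second TIMM8B probe set, _at, was dim, and its L mean rested on L replicate 1, with a signal of 376.4 against 26.8 to 148.3 in the rest of L. Its L/C difference of 0.86 (SE 0.61) was 0.43 without that array.

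TIMM9 and TIMM10, which act as a pair, had overlapping arrays in all 3 formulas. TIMM9 averaged 475 for C, 456 for L and 401 for L3, an L/C of -0.13 and an L3/C of -0.33 (log2, SE 0.30). TIMM10 _s_at had means of 773, 788 and 747, with differences of -0.03 and 0.07 (SE 0.26). TIMM10 _at gave 0.28 and -0.49 with an SE of 0.77. The last of these ran from -1.07 without C replicate 2 to 0.18 with the spike-in covariate, and its L/C was 0.99 without L replicate 1.

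TIMM13, the partner of TIMM8A, had signals of 289.1, 324.9, 458.4 and 608.2 in C for its _s_at probe set, which was added to those given in full after its values were seen. In L they were 311.0, 427.1, 583.9 and 476.9, and in L3 they were 55.6, 351.1, 214.9 and 489.1. L3 replicate 1 lay below all other arrays. L/C was 0.12 and L3/C was -0.91 (log2, SE 0.52, exact permutation p = 0.286 for L3/C, two-sided), and the latter was -0.33 without L3 replicate 1. That array had the highest ACTB ratio of the 12 (6.18). L3/C was -0.61 with the ACTB ratio as a covariate and -0.57 with the spike-in signal. Among the 6 arrays with lower spike-in signal, where L3 replicate 4 alone stands for L3, it was -0.12. It was -0.89 among the 6 with higher signal. The part of RNA quality in the L3/C difference was not tested. TIMM13 _at, with means of 32.2 in C and 52.5 in L3, had differences of 0.37 and 0.39 (SE 0.48) in the same comparisons.

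TIMM22, the pore of the carrier translocase, held the lowest L3/C difference of the members. The signals of its _x_at probe set were 350.7, 365.1, 301.8 and 120.9 in C, 110.4, 317.5, 89.7 and 353.6 in L, and 248.2, 101.0, 15.2 and 104.5 in L3. The L3 arrays were all below the 3 highest C arrays, but L3 replicate 1 lay above C replicate 4. The means were 285 ± 112, 218 ± 137 and 117 ± 96.6 (SD, n = 4). The L3/C difference was -1.53 (SE 0.64), with a limma p of 0.0294 before and 0.999 after adjustment over all probe sets, and an exact permutation p of 0.0571. Without L3 replicate 3 it was -0.95. In L/C it was -0.51 (SE 0.64). An identifier ending in _x_at marks a probe set that may also bind other transcripts.

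The other 2 TIMM22 probe sets did not share this difference in value. For the dimmer _s_at the L3/C difference was 0.50 (SE 0.55), and L3 replicate 3, the lowest array of _x_at, was its highest at 243.7 against 10.2 to 72.6 elsewhere. Without that array the difference was -0.11, and this probe set was dim, with means of 30.9 in C and 36.3 in L. For the brighter _s_at the L3/C difference was -0.04 (SE 0.55), with signals of 57.1 to 193.8 in C and 63.1 to 277.0 in L3. Whether the 3 probe sets differ in response was not tested.

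OXA1L, the insertase, had signals of 178.2, 506.5, 1182.0 and 749.9 in C. In L they were 493.5, 990.5, 1110.3 and 799.9, and in L3 they were 338.6, 711.9, 165.9 and 568.2. The C arrays spanned nearly the full range of the 12, from C replicate 1 to C replicate 3, and overlapped both other groups. The means for C, L and L3 were 654 ± 423, 849 ± 269 and 446 ± 242 (SD, n = 4 each). On the log2 scale L/C was 0.58 and L3/C was -0.42 (SE 0.53 each). The L3/C value was 0.04 without L3 replicate 3, -0.09 without C replicate 3 and -0.91 in females only. It was 0.12 among the 6 arrays with higher spike-in signal. Among the 6 with lower signal, where L3 replicate 4 alone stands for L3, it was -0.58. The L/C value was 0.09 without C replicate 1.

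**Figure D3:**
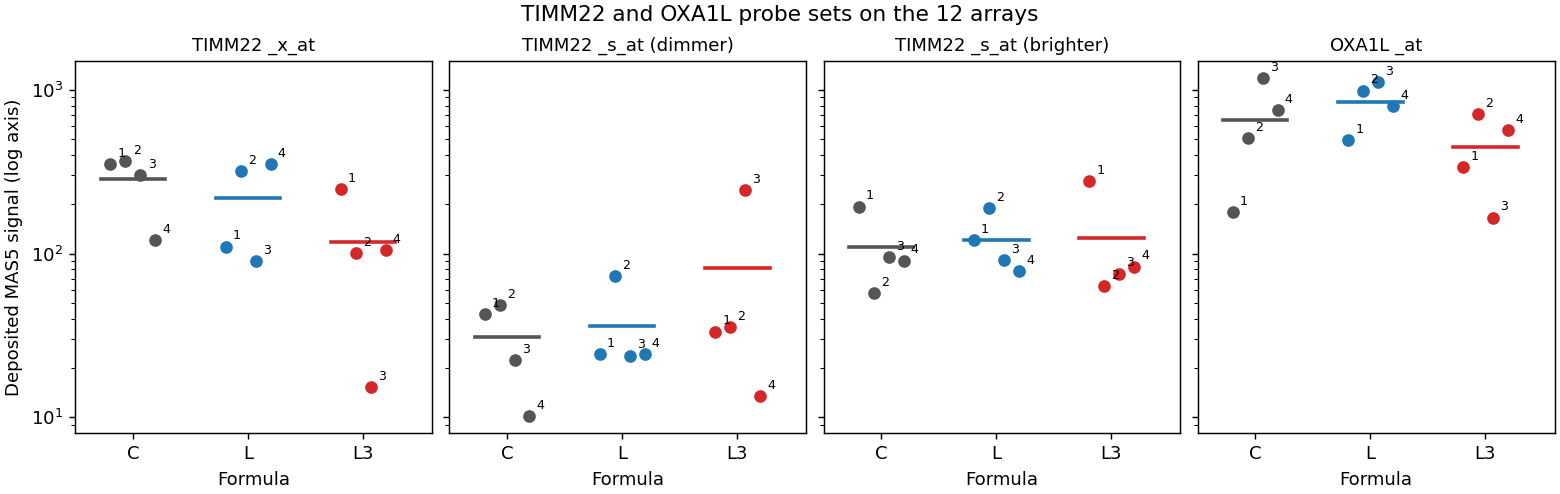
MAS5 signals (log axis) of the 3 TIMM22 probe sets and of OXA1L on each array, grouped by formula, with a bar at the arithmetic mean of the 4 arrays and the replicate number beside each point. The mean of TIMM22 _x_at was 285 in C and 117 in L3, and L3 replicate 3 is at once its lowest array and the highest of the dimmer _s_at.

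In the presequence translocase, 0 of 7 probe sets reached an unadjusted p under 0.05 in any comparison. Over all probe sets 2.42% did so in L/C, 4.26% in L3/C and 5.40% in L3/L. TIMM17A, a core subunit of the channel, had L/C differences of 0.05 (SE 0.30) for the dimmer and -0.06 (SE 0.26) for the brighter _s_at probe set, with L3/C differences of -0.08 and -0.25. The brighter _at gave -0.09 and -0.40 (SE 0.36). The dimmer _at, with signals of 5.7 to 96.3, gave 0.57 and 0.90 (SE 0.53). TIMM23, the channel itself, rested on 1 dim probe set with signals of 23.7 to 339.7, and its L/C was -0.05 and its L3/C 0.18 (SE 0.67). TIMM44, the tether of the import motor, gave 0.26 and 0.35 (SE 0.36) for its _s_at probe set, and -0.46 and -0.12 (SE 0.73) for _at.

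Of the 20 member probe sets, 17 belong to the 8 genes the study did not select. Among these 17, 0 had 4 arrays of a formula wholly to one side of the 4 C arrays, where 2.10% of all 54613 probe sets tested did so in L/C and 2.21% in L3/C. In L3/L the groups of 0 of the 17 and of 2.66% of all probe sets did not overlap. At an adjusted p under 0.05 limma called 0 of the 17 and 0% of all probe sets in L/C, L3/C and L3/L. An unadjusted p under 0.05 was reached by 2.42% of all probe sets in L/C (1.15% above C and 1.27% below it) and by 0 of the 17. In L3/C it was reached by 4.26% (2.22% above and 2.04% below) and by 1 of the 17, TIMM22 _x_at. In L3/L it was reached by 5.40% (2.96% above L and 2.44% below it) and by 0 of the 17. The 17 had a median L/C of 0.05 and a median L3/C of -0.08, beside -0.01 and -0.00 over all probe sets, with 9 and 7 above 0. With TIMM8A and OXA1L the medians were 0.09 and -0.10, as a description. In L/C 15 of the 17 differences were smaller than their own SE, and in L3/C 11 were.

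In L3/C the medians of the brighter and the dimmer members had opposite signs. Of the 12 above the median level of all probe sets, 10 were lower in value and 2 higher, with a median of -0.31. Of the 8 below it, 6 were higher and 2 lower, with a median of 0.28. The same split of all probe sets gave medians of -0.04 and 0.05, with 45.8% and 54.1% higher. With the spike-in signal as a covariate the brighter 12 were 7 lower and 5 higher with a median of -0.15, and the dimmer 8 had a median of 0.13. The 2 medians were -0.27 and 0.17 with the ACTB ratio, and -0.51 and 0.20 after median centring of the arrays. L3 holds 3 of the 4 arrays with the highest spike-in signal, and its part in this split was not tested. In L/C the medians of these members were -0.02 and 0.29. The study's TIMM8A probe set is among the dimmer 8. The other TIMM8A probe set and OXA1L are among the brighter 12. Both genes were selected by the study on these arrays, so the split includes selected values and is a description.

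**Figure D4:**
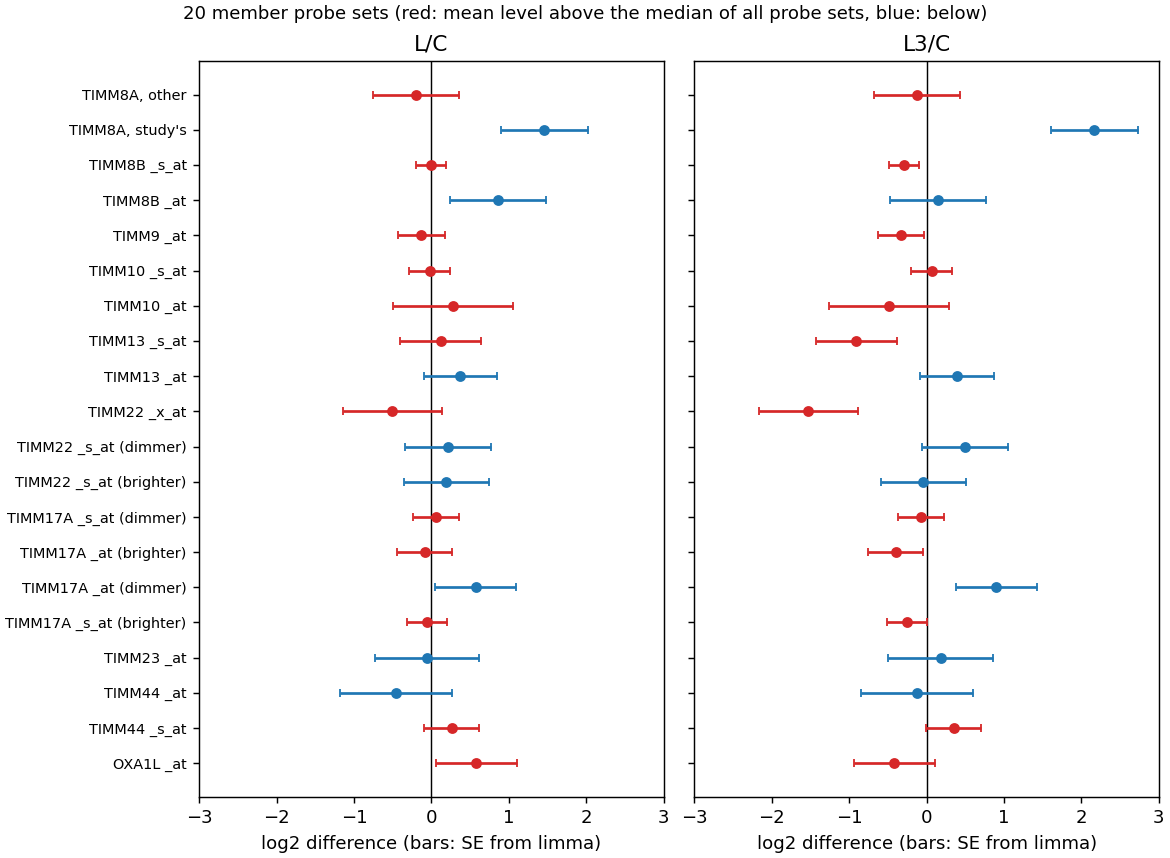
Log2 differences with SE in L/C and L3/C for the 20 member probe sets, ordered by role, with points in red for probe sets above the median level of all and in blue for those below it. The study's TIMM8A probe set (1.46 and 2.17) and TIMM22 _x_at (-0.51 and -1.53) lie furthest from 0 in L3/C, where the bars of 13 of the 20 cross 0.

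L replicate 1 often lay outside the other 3 L arrays, over all probe sets as well as in the members. It had the highest spike-in signal (13.04) and the highest ACTB ratio (3.45) of the L arrays. Over the 20 members it lay above the other 3 L arrays in 5 and below them in 10, beside 37.6% and 33.9% of all probe sets. Of the 12 brighter members it lay below the others in 8 and above in 0, where 41.4% and 35.5% of all brighter probe sets did so. Among the 8 dimmer members it lay above the rest of L in 5, beside 39.7% of all dimmer probe sets. The dimmer TIMM17A _s_at, chosen here after its values were seen, had a signal of 594.1 on that array against 1647.8 to 2007.9 on the rest of L. L3 replicate 4 lay above the other L3 arrays in 4 of the 20 members and below them in 4, beside 22.9% and 24.9% of all probe sets.

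The other parts of the import pathway were followed on a list of 42 genes with 89 probe sets. Of these, 40 had a positive L/C and 43 a positive L3/C, with medians of -0.04 and -0.01 on the log2 scale, and limma called 0 at an adjusted p under 0.05. At an unadjusted p under 0.05, L/C had 1 above and 1 below C, beside 1.15% and 1.27% of all probe sets, and L3/C had 2 above and 1 below, beside 2.22% and 2.04%. By role, the lowest L3/C median was that of the sorting and assembly machinery of the outer membrane at -0.35 over 8 probe sets, and the highest was that of matrix folding at 0.18 over 10.

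In L/C the 3 probe sets of this list with the smallest p were those of SLC25A13, DNAJC19 and TOMM22. SLC25A13, an aspartate/glutamate carrier that TIMM8A with TIMM13 escorts, had a log2 difference of 1.57 (SE 0.60), with means of 57.0 in C and 195.4 in L. DNAJC19, a cochaperone of the import motor, had one of -0.82 (SE 0.32), with means of 431.4 and 235.2. TOMM22, a receptor of the outer membrane, had one of 0.76 (SE 0.40). The other probe sets of SLC25A13 and DNAJC19 did not share the values, while those of TOMM22 had both signs. Their values were -0.22 and -0.06 for SLC25A13 and -0.27 and 0.51 for TOMM22. For DNAJC19 the second probe set, which is the brighter, gave 0.03. In L3/C they were COX18, an inner membrane insertase related to OXA1L, at 1.27 (SE 0.52), the peptidase XPNPEP3 at -1.05 (SE 0.45) and the matrix chaperonin HSPD1, read by a dim probe set with means of 10.1 in C and 65.0 in L3, at 1.13 (SE 0.52). The brighter COX18 probe set had the opposite sign at -0.73. The other 5 of XPNPEP3 ranged from -0.78 to 0.44 and the other 4 of HSPD1 from -0.30 to 0.48. The brightest HSPD1 probe set, with a mean of 2958.2 in C, gave 0.40 (SE 0.19), and the next brightest gave -0.30. The 4 arrays of the formula did not overlap those of C for the named SLC25A13 and DNAJC19 probe sets in L/C, where 2.10% of all probe sets did not, and for that of XPNPEP3 in L3/C, where 2.21% did not. None of these passed adjustment over all probe sets, with a limma adjusted p of 1.0 for L/C and 0.999 for L3/C.

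The probe sets whose pattern over the 12 arrays was most like that of the study's TIMM8A probe set were those of SAT1 with a Pearson r of 0.89, HBEGF with 0.89 and CFB with 0.87. They were the highest 3 of 22069 probe sets with 1 symbol and a level above the median. These values are a description, since the arrays share formula and spike-in signal.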

How the data were processed

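The authors deposited 1 table of MAS5 signal intensity per probe set from GCOS, on a linear scale, for 12 arrays of separate animals. The methods of the study describe RMA values, which these are not. The values used here are log2(signal + 16), quantile normalized, without the 62 control probe sets. Limma 3.58.1 (R 4.3.3) fitted the 3 group means with a variance trend and with Benjamini-Hochberg adjustment over 54613 probe sets and a threshold of 0.05. Exact permutation tests compared 4 with 4 arrays (two-sided, smallest possible p 0.0286). Summaries used Python 3.11.15 with pandas 2.3.3, numpy 2.4.6 and scipy 1.17.1. The fit was tested on simulated data. Precision rests on 4 arrays per group.

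Groups, sex and age came from the sample records. Symbols came from a platform annotation, by which 41091 probe sets have 1 symbol, 1801 several and 11721 none. The members and lists were chosen with earlier results of these data known. All member probe sets are named. Values of all arrays are given for TIMM8A, OXA1L and members with an unadjusted p under 0.05 or groups that do not overlap, and TIMM13 _s_at was added after its values were seen. Of the import list, the 3 probe sets of lowest p are named for each LCPUFA formula against C. The 3 most correlated with the study's TIMM8A probe set are also named.

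Alternatives were no further normalization, median centring, a pseudocount of 1, brighter probe sets only, no variance trend, array weights, the 8 arrays compared, females only, covariates (sex, age, spike-in signal, ACTB ratio), a replicate block, the methods' multiclass test and leaving out each array. Subsets by spike-in signal were added after seeing the data.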

Additional observations from a re-analysis of the deposited data

Results flagged for a closer look

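In 5 of the 60 groups of 4 arrays (20 member probe sets in 3 formulas), 1 array lay far from the other 3 by Dixon's criterion, which chance meets in about 1 in 20 groups. Values are normalized log2 levels with the deposited signal beside them. L replicate 1 was low for the other TIMM8A probe set, not the study's (6.17, a signal of 67.5 against 280.6 to 324.5), for TIMM10 _at (5.55, 39.7 against 250.5 to 357.1) and for the dimmer TIMM17A _s_at (9.30, 594.1 against 1647.8 to 2007.9). C replicate 4 was low for TIMM22 _x_at (7.24, 120.9 against 301.8 to 365.1). L replicate 2 was high for the brighter TIMM22 _s_at (7.92, 190.1 against 78.3 to 120.8). L replicate 1 is the L array with the highest spike-in signal and the highest ACTB ratio (3.45 against -0.15 to 1.33 in the rest of L). The part of either in its 3 low values was not tested.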

How the results depend on the processing

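Limma called 0 probe sets at an adjusted p under 0.05 in L/C, L3/C and L3/L in the reported fit and under the alternatives of scaling, pseudocount, filter, variance model, covariates, block, weights and left-out arrays. The count was not made for the subsets by spike-in signal. At an unadjusted p under 0.05 the reported fit held 1324, 2329 and 2949. Without L3 replicate 4 the unadjusted counts were 4314 in L3/C and 5435 in L3/L, and with array weights the count in L/C was 2759. Among the brighter probe sets, which are fewer, the 3 counts were 472, 951 and 1358. The L3/C difference of the study's TIMM8A probe set was 2.92 with a pseudocount of 1, lay between 1.92 and 2.56 when each array was left out in turn, and could not be given among the brighter probe sets, since it lies below the median level. The replicate block left it at 2.17 (SE 0.53) and gave 1698, 2836 and 3826 unadjusted calls. The formula mean of each probe set was subtracted, and the remainders were correlated between arrays of different formulas. For same-numbered arrays r was -0.085 to 0.331, over 0.1 in 6 of 12 pairs. Of the 12 arrays, 6 were closest to an array of their own number. Arrays of the same formula were not compared, and 1 of the 4 in each other formula shares the number. The ACTB ratio fell with replicate number in each formula. From replicate 1 to replicate 4 it went from 3.59 to -0.03 in C, 3.45 to -0.15 in L and 6.18 to 0.17 in L3. The reported fit did not take the numbers as pairs, and whether they mark a shared source of spread was not tested. The sign held under every alternative in 2 of 20 members in L/C (the study's TIMM8A probe set and OXA1L) and in 7 of 20 in L3/C. TIMM8A and OXA1L were selected by the study on these arrays, so their signs are a description. In females only the L/C of OXA1L was 0.02 (SE 0.63). The methods' multiclass test gave 2122 probe sets at p under 0.05 and 0 after Benjamini-Hochberg, beside 2006 and 0 by limma. Dim probe sets near the pseudocount limit what can be said of the study's TIMM8A probe set and TIMM13 _at. The same holds for the dimmer TIMM22 _s_at and the dimmer TIMM17A _at.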
